A study of Mus musculus with 11 samples.

Results

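Immunoglobulin chain genes encode the heavy chains, the kappa and lambda light chains and the joining chain of antibodies. They were followed across 11 RNA libraries of mouse knee articular cartilage. Members were chosen by name and summed count: genes whose GRCm38 symbol begins with Ighv, Ighg, Igkv, Iglv or Iglc, or equals Igha, Ighm, Ighd, Ighe, Igkc or Jchain, and whose counts summed to at least 20 over the libraries. Of 362 genes with such a symbol, 164 met that minimum, among 55421 genes in the files. These were 79 of 185 heavy V genes, 70 of 160 kappa V genes, 3 of 3 lambda V genes, 7 of 8 heavy constant genes, Igkc, 3 of 4 lambda constant genes and Jchain. Just outside the minimum lay Ighv3-4 and Igkv4-50 with 17 summed counts each, and just inside lay Igkv12-38, Igkv3-1 and Igkv8-16 with 20 each. Ighe, the IgE heavy chain, had 5 summed counts and Iglc4 had 3, so neither is described further.

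The DMM knees of mice labelled c-FosDCh gave 4 libraries, the DMM knees of c-FosWT mice gave 3 and the contralateral knees of c-FosWT mice gave 4. DMM, destabilisation of the medial meniscus, is a knee surgery used to model osteoarthritis in mice, and c-FosDCh was read as a deletion of Fos in chondrocytes; the driver of that deletion is not given in the sources used here. All mice were C57BL/6, 14 weeks of age, and were taken 4 weeks after the surgery. For 3 c-FosWT animals both knees were sequenced: DMM library 1 pairs with contralateral library 1, DMM 2 with contralateral 2, and DMM 3 with contralateral 4. No contralateral library of c-FosDCh mice was analysed here. Beyond the animal names nothing says how the samples were raised, so p-values measure the spread between these knees, which may be technical in part.

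An antibody is built from paired heavy and light chains. Each B cell joins 1 V gene to short joining segments upstream of a constant gene, and the choice is passed to its daughter cells, so a V gene that dominates a library can come from few cells. The constant gene sets the isotype: Ighm and Ighd give the IgM and IgD of naive B cells, and switching gives IgG or IgA. Antibody-secreting plasma cells carry far more immunoglobulin RNA per cell than resting B cells, and both live in bone marrow, which lies beneath joint cartilage.

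The libraries held between 13593454 and 18280558 counts in genes (median 16387548). Members held 795 to 27697 of them. Fos itself was at 19.4, 10.9, 29.4 and 33.0 CPM (counts scaled to library size with TMM factors) in libraries labelled c-FosDCh, at 12.0, 14.1 and 9.0 CPM in c-FosWT DMM and at 17.1, 24.8, 22 and 15.7 CPM in contralateral libraries. The targeted gene was thus not lower under the c-FosDCh label, so these bulk counts do not bear that label out. Counts of the whole gene in bulk tissue cannot show whether it was deleted in chondrocytes. The groups are named by label throughout. The cartilage markers Col2a1 and Acan were high in every library (2326 CPM and 473 CPM or more). The erythroid gene Hbb-bs was also high, at 203 to 2299 CPM under the c-FosDCh label, 3958 to 6423 CPM in c-FosWT DMM and 1274 to 3519 CPM in contralateral libraries. A marrow score, averaged on the log2 CPM scale over 31 genes of red cells and granulocytes, was 7.36, 7.39, 5.96 and 3.80 in c-FosDCh-labelled libraries 1 to 4, 7.90, 8.23 and 8.68 in c-FosWT DMM libraries and 7.08, 6.40, 6.35 and 7.98 in contralateral libraries. The lowest scores were those of c-FosDCh-labelled libraries 3 and 4. Only library 4 stood clearly apart, since 5.96 in library 3 was close to 6.35 in contralateral library 3. The animal number of c-FosDCh-labelled library 4 also lies outside the run of numbers of all other animals, and the labels do not say why. The main values are given again without c-FosDCh-labelled libraries 3 and 4, a choice made after seeing the data.

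Summed over all 164 members, immunoglobulin RNA came to 728, 711, 201 and 63.1 CPM under the c-FosDCh label, to 741, 1499 and 1156 CPM in c-FosWT DMM and to 1733, 570, 844 and 847 CPM in contralateral knees. The group means were 426 ± 344 CPM (SD, n = 4), 1132 ± 379 CPM (n = 3) and 999 ± 507 CPM (n = 4), in that order. All 4 c-FosDCh-labelled values lay below the lowest c-FosWT DMM value, libraries 1 and 2 just below it and 3 and 4 below every other library, and libraries 1 and 2 overlapped the contralateral values. As a share of gene counts, members took 0.0725, 0.0685, 0.0189 and 0.00517% under the c-FosDCh label, 0.0773, 0.168 and 0.114% in c-FosWT DMM and 0.182, 0.0588, 0.0864 and 0.0896% in contralateral libraries. In bulk tissue, fewer B-lineage cells and less immunoglobulin RNA per cell cannot be told apart. The 2 low libraries are also those with the lowest marrow scores. The part that marrow RNA plays in the difference was not tested, and the covariate fit given below does not settle it.

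**Figure D1:**
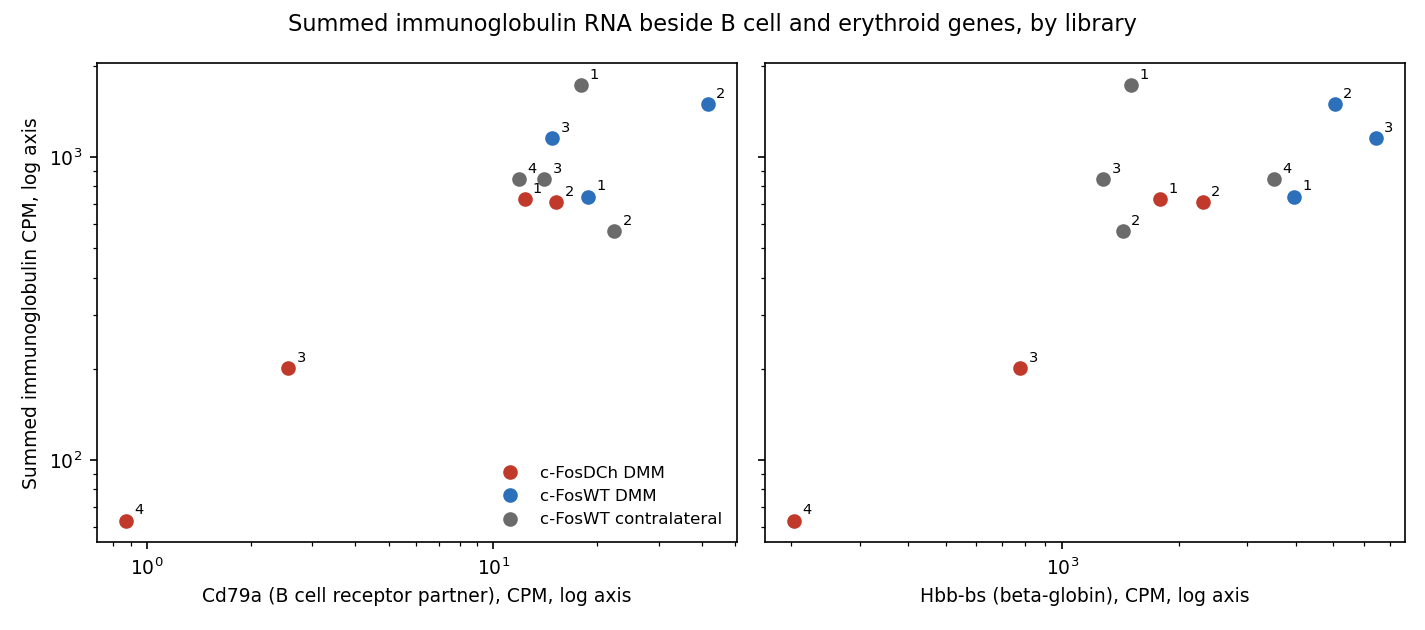
Summed CPM of the 164 members (vertical log axis) against the CPM of Cd79a, a B cell receptor partner (left), and of Hbb-bs, a beta-globin (right), on log axes; each point is 1 library with its replicate number. The c-FosDCh-labelled libraries 3 and 4, at 201 and 63.1 CPM of immunoglobulin RNA, are the lowest on all 3 measures.

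Ighm, the IgM heavy chain, was the most abundant heavy constant gene per length, with a mean of 134 CPM per kb of exon over the libraries, against 45.7 CPM per kb for Igha. It was at 201, 170, 48.5 and 15.2 CPM in libraries labelled c-FosDCh, at 276, 582 and 231 CPM in c-FosWT DMM and at 604, 224, 242 and 175 CPM in contralateral libraries. Every c-FosDCh-labelled value lay below every c-FosWT DMM value, but 1 of them lay above the lowest contralateral value. The log2 fold change of c-FosDCh-labelled over c-FosWT DMM was -1.74 ± 0.76 (SE), which did not pass (edgeR adjusted p = 0.122). DESeq2 called Ighm lower, close to the threshold (DESeq2 adjusted p = 0.0494). Ighd, the IgD heavy chain of naive B cells, was at 10.9, 13.5, 2.94 and 3.17 CPM under the c-FosDCh label, at 15.4, 36.8 and 17.8 CPM in c-FosWT DMM and at 11.5, 13.5, 16.8 and 12.8 CPM in contralateral libraries. The DMM groups did not overlap, and the log2 fold change between them was -1.61 ± 0.52 (edgeR adjusted p = 0.0603). DESeq2 called Ighd lower (DESeq2 adjusted p = 0.0132).

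Igha, the IgA heavy chain, was at 69.4, 169, 44.9 and 23.0 CPM under the c-FosDCh label, at 68.3, 139 and 288 CPM in c-FosWT DMM and at 131, 63.0, 144 and 201 CPM in contralateral libraries. The groups overlapped, and the log2 fold change between the DMM groups was -1.11 ± 0.66 (edgeR adjusted p = 0.224). Jchain, which links the monomers of IgM and IgA into polymers, was at 35.7, 43.5, 11.2 and 5.16 CPM, 30.8, 55.0 and 71.4 CPM, and 70.3, 20.5, 44.7 and 56.6 CPM in the c-FosDCh-labelled, c-FosWT DMM and contralateral libraries. Its log2 fold change between the DMM groups was -1.13 ± 0.65 (edgeR adjusted p = 0.210).

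Among the IgG heavy chains, Ighg2b had a log2 fold change of -1.36 ± 0.86 and Ighg1 one of -1.62 ± 1.36 between the DMM groups (edgeR adjusted p = 0.25 and 0.375). Some libraries held almost no counts of an isotype. Ighg1 was at 8.60, 14.6, 0.312 and 0 CPM under the c-FosDCh label, at 3.86, 25.7 and 25.2 CPM in c-FosWT DMM and at 21.8, 0.357, 18.2 and 8.61 CPM in contralateral libraries. Ighg3 was at 12.7, 1.2, 0 and 0 CPM, at 0.0585, 9.04 and 4.17 CPM, and at 4.44, 0, 0.0596 and 2.71 CPM in the same order of groups. Ighg2c, the IgG2 isotype that C57BL/6 mice carry in place of IgG2a, ranged from 1.11 to 55.4 CPM under the c-FosDCh label, from 24.6 to 51.5 CPM in c-FosWT DMM and from 0.119 to 58.8 CPM in contralateral libraries. Contralateral library 3 held 2 counts of Ighg2c beside 856 of Ighg2b.

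**Figure D2:**
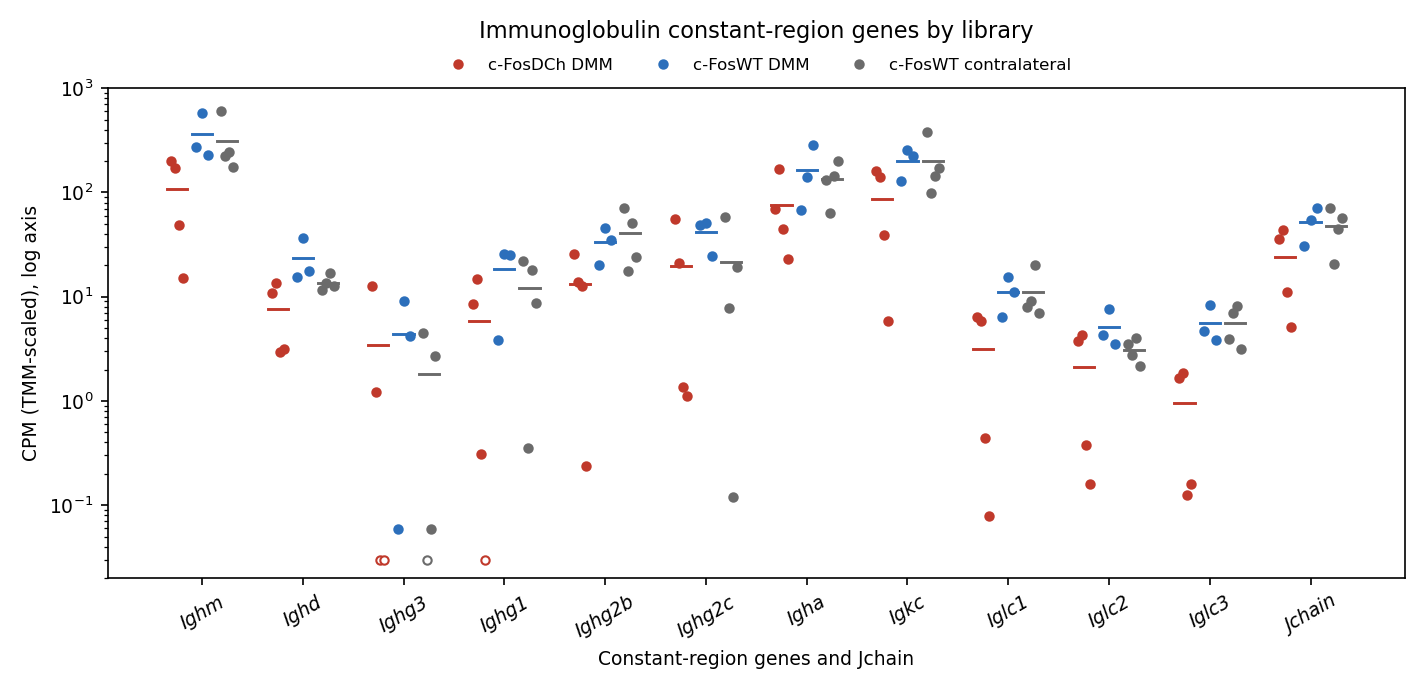
CPM of the 7 heavy constant genes, the 4 light constant genes and Jchain in each library on a log axis; points are libraries, bars are group means, and open points at the bottom are values of 0. The c-FosDCh-labelled points spread widest downwards, with Ighm between 15.2 and 201 CPM.

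Igkc, the only kappa constant gene, was the most abundant member per length, at 298 CPM per kb. It was at 160, 140, 38.7 and 5.87 CPM in libraries labelled c-FosDCh, at 127, 257 and 223 CPM in c-FosWT DMM and at 381, 99.0, 144 and 170 CPM in contralateral libraries. The groups overlapped, with a log2 fold change of -1.23 ± 0.84 between the DMM groups (edgeR adjusted p = 0.278).

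The 3 lambda constant genes lie in 1 locus, and Iglc2 and Iglc3 are near copies. Their first 150 coding bases are shown because Iglc3 is the only constant gene called in the main edgeR fit in any comparison, and reads must separate it from Iglc2. The sequences are from GENCODE M21 transcripts on GRCm38, minus strand, 5′ to 3′, at chr16:19061922-19062071 for Iglc1, chr16:19198703-19198852 for Iglc2 and chr16:19065532-19065681 for Iglc3. Capitals mark the 36 positions at which the 3 are not all identical.
Iglc1: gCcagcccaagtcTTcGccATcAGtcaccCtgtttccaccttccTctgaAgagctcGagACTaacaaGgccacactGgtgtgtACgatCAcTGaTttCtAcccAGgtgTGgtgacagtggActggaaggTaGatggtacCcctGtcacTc
Iglc2: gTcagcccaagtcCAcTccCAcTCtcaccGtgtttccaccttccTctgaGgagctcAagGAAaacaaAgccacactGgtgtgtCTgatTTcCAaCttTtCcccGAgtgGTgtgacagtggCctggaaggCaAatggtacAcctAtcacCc
Iglc3: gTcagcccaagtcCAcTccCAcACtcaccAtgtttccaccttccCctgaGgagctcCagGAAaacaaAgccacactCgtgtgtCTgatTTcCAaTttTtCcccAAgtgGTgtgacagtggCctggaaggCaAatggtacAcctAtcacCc
Over these bases Iglc2 and Iglc3 differ at 7 positions (95.3% identity), while Iglc1 differs from Iglc2 at 34 and from Iglc3 at 33. Of the 75-base windows of their transcripts, 1.32% in Iglc3 and 0.931% in Iglc2 also occur in another immunoglobulin gene.

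Iglc3 had 23, 32, 2 and 2 counts in libraries labelled c-FosDCh, 81, 145 and 69 counts in c-FosWT DMM libraries and 63, 97, 138 and 59 counts in contralateral libraries. In CPM these are 1.68, 1.86, 0.125 and 0.159 under the c-FosDCh label, 4.74, 8.29 and 3.83 in c-FosWT DMM and 3.94, 6.92, 8.22 and 3.13 in contralateral libraries. No c-FosDCh-labelled value reached the lowest value of either other group. Iglc3 fell under the c-FosDCh label relative to c-FosWT DMM, with a log2 fold change of -2.53 ± 0.74 (edgeR adjusted p = 0.0476). With 1 library left out in turn the value ran from -3.10 to -2.16, and the call held only without c-FosDCh-labelled library 1 or 2. It was -1.68 without c-FosDCh-labelled libraries 3 and 4, and -1.89 in the fit that holds the marrow score, and neither was called. Iglc1, at 0.0793 to 6.34 CPM under the c-FosDCh label and 6.38 to 15.6 CPM in c-FosWT DMM, had -1.78 ± 0.92 (edgeR adjusted p = 0.170). Iglc2, at 0.159 to 4.30 CPM and 3.50 to 7.61 CPM, had -1.25 ± 0.79 (edgeR adjusted p = 0.248).

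Over the whole set, 111 members passed the filter on low counts and were tested: 48 heavy V, 48 kappa V, 3 lambda V genes and all 12 constant and joining chain genes. The other 53 did not pass, so the counts below describe only the members that did, and 19 members were detected in all 11 libraries. Between DMM libraries labelled c-FosDCh and c-FosWT DMM libraries, 7 of the 111 were called, all lower, which is 6.31% of them. All but Iglc3 are V genes that passed the filter through c-FosWT libraries alone, which favours lower estimates, so this share is a description. Over all 18125 genes tested the same comparison called 14.4% in either direction and 3.79% lower. The median log2 fold change of the tested members was -1.5, with 98 of 111 negative, against a median of -0.01 over all genes tested. Without the filter, all 164 were tested, 142 were negative, the median was -1.66 and 5 were called. Of the 164 members, 37 had c-FosDCh-labelled CPM wholly below the c-FosWT DMM values and 0 wholly above, where 14.3% of the 21954 genes with at least 20 summed counts lay wholly below and 15.1% wholly above. The 12 constant and joining chain genes had log2 fold changes between -2.53 and -0.36, all negative. DESeq2 called 25 of the 111, all lower, which is 22.5% of them. Over all genes it called 13.2% lower and 29.6% in either direction. The comparison shares its c-FosWT DMM libraries with the one between the knees of c-FosWT mice.

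The count of calls rested on few libraries. It was 0 without c-FosDCh-labelled library 3, without library 4 and without both, 0 without c-FosWT DMM library 2 or 3, and 0 without contralateral library 1 or 2. It was 14 without c-FosDCh-labelled library 1, 19 without library 2 and 2 without contralateral library 3. In the fits with 0 member calls, at most 1 gene of the whole table was called. Without c-FosDCh-labelled libraries 3 and 4, chosen after seeing the data, the median of 135 tested members was -0.80, with 99 negative. With the marrow score as a covariate 0 members were called, and the median of the 111 was -0.07. The values of Igkc, Igha, Ighg1, Ighg2b and Jchain then turned positive. That fit called 0 of all 18125 genes. The score was 7.39 or less under the c-FosDCh label and 7.90 or more in c-FosWT DMM, without overlap. The fit thus compares the DMM groups at scores they do not share, and it does not settle the part of marrow RNA.

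The comparison of DMM with contralateral knees of c-FosWT mice asks what the surgery did. No member was called: 0 of 111 with edgeR, where 0% of all 18125 genes were called, and 0 with DESeq2, where 4.98% of all genes were called, and with limma-voom. Of the 111 members, 2 had an unadjusted p under 0.05, where 3605 of all 18125 genes did. The median log2 fold change of the members was 0.20. Ighm had 0.22 ± 0.76 (edgeR adjusted p = 0.879), Igkc 0.03 ± 0.84 (0.986), Igha 0.30 ± 0.66 (0.808), Jchain 0.13 ± 0.65 (0.922) and Ighd 0.77 ± 0.52 (0.407). Without c-FosWT DMM library 2 the value of Ighm turned to -0.28, and without DMM library 3 those of Igha and Jchain turned to -0.36 and -0.15; that of Jchain was also negative without contralateral library 2. That of Igkc turned negative in 5 of the fits that left out 1 library, down to -0.17. No direction can therefore be given for these genes. Of the 164 members, 6 had DMM values wholly above the contralateral ones and 0 wholly below, where 8.96% of genes lay wholly above. In the fit blocked by animal, over the 3 pairs of knees, 0 of 95 members were called.

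Between libraries labelled c-FosDCh and contralateral c-FosWT libraries, which differ in both surgery and label, edgeR called 0 of 111 members and 0% of all genes. There were 29 members with an unadjusted p under 0.05, where 1512 of all 18125 genes had one. DESeq2 called 5 members, all lower, where it called 0.226% of all genes in either direction and 0.132% lower. Iglc3 had the lowest constant-gene value, -2.51 ± 0.71 (edgeR adjusted p = 0.584), and Ighm had -1.52 ± 0.72, Igkc -1.20 ± 0.79, Igha -0.81 ± 0.62, Ighd -0.84 ± 0.49 and Jchain -1.0 ± 0.61 (edgeR adjusted p = 0.584 to 0.656). Members with values wholly below the contralateral ones numbered 7 of 164, and 0 wholly above, where 2.23% of genes lay wholly below and 2.12% wholly above. This comparison shares its c-FosDCh-labelled libraries with the one between the DMM groups.

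**Figure D3:**
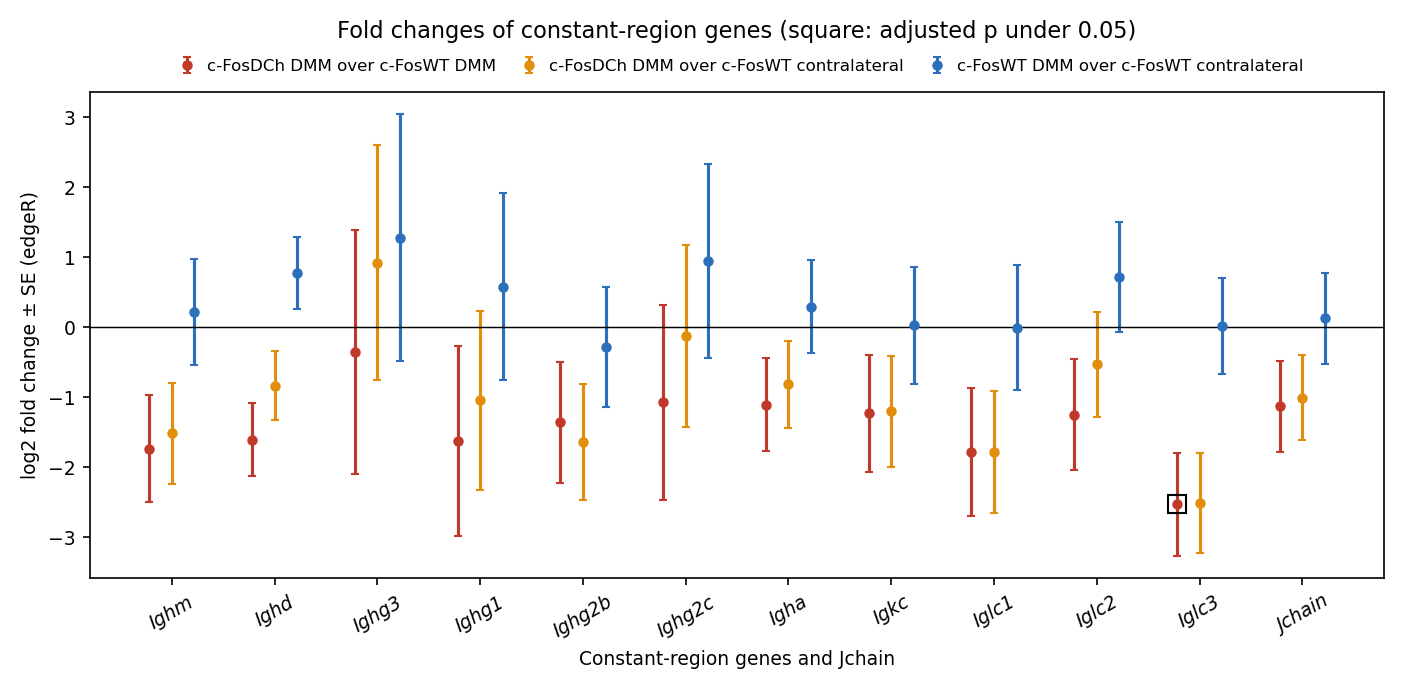
edgeR log2 fold changes with standard errors for the 12 constant and joining chain genes in the 3 comparisons; the square marks an adjusted p under 0.05. Iglc3 between the DMM groups, at -2.53, is the only one marked.

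Isotype make-up is given as shares of the heavy constant counts of a library, with no scaling between libraries. Ighm took 52.4, 42.2, 43.7 and 35.6% of heavy constant counts in libraries labelled c-FosDCh, 63.9, 65.4 and 36.8% in c-FosWT DMM libraries and 66.9, 68.7, 51.3 and 39.5% in contralateral libraries. Igha took 18.1, 41.9, 40.5 and 53.8% under the c-FosDCh label, 15.8, 15.7 and 46.1% in c-FosWT DMM and 14.5, 19.3, 30.4 and 45.3% in contralateral libraries. The groups overlapped for both. The exact 95% binomial interval of Igha in c-FosDCh-labelled library 4, which rests on 539 heavy constant counts, was 49.5 to 58.1%. Such intervals cover counting error only, since reads without molecular identifiers are not independent molecules.

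Igha shares of both knees of an animal can be set side by side. In the third pair Igha took 46.1% (exact 95% interval 45.1 to 47.0%) of heavy constant counts in the DMM knee and 45.3% in the contralateral knee. In the first pair it took 15.8% (15.0 to 16.7%) and 14.5% (14.0 to 15.1%), and in the second pair 15.7% (15.1 to 16.2%) and 19.3% (18.1 to 20.4%). The first 2 animals lay near each other, from 14.5 to 19.3%, and the third stood off from both. Other shares differed within pairs. In the first pair lambda constant genes took 10.8% (9.57 to 12.1%) of light constant counts in the DMM knee and 3.87% (3.41 to 4.38%) in the contralateral knee. In the second pair Ighg1 took 2.89% (2.63 to 3.17%) of heavy constant counts in the DMM knee and 0.109% (0.0354 to 0.254%) in the contralateral knee. With 3 pairs these are descriptions.

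The 4 IgG genes together took 26.6, 12.5, 13.1 and 3.15% of heavy constant counts under the c-FosDCh label, 16.8, 14.8 and 14.3% in c-FosWT DMM and 17.3, 7.92, 14.7 and 12.3% in contralateral libraries. Ighg2c alone took 14.4, 5.16, 1.24 and 2.6% under the c-FosDCh label, 11.2, 5.78 and 3.93% in c-FosWT DMM and 6.52, 2.40, 0.0252 and 4.31% in contralateral libraries. Ighg3 had 0 of 1774 and 0 of 539 heavy constant counts in c-FosDCh-labelled libraries 3 and 4, which allows shares of up to 0.169% and 0.557%.

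**Figure D4:**
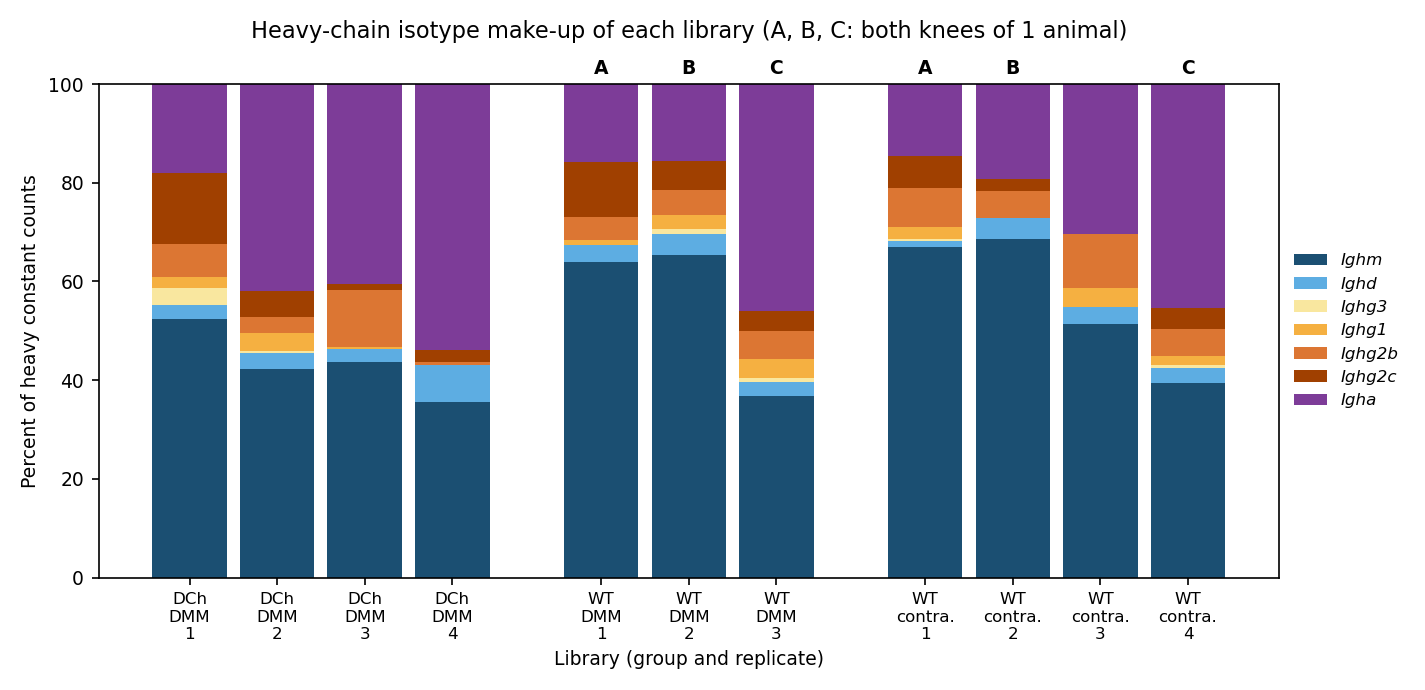
Percent of heavy constant counts taken by each isotype gene in each library; letters mark the 3 animals with both knees sequenced. The pair marked C has Igha shares of 46.1% and 45.3%, against 14.5 to 19.3% in pairs A and B.

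Lambda constant genes took 6.83, 7.90, 2.36 and 6.33% of light constant counts in libraries labelled c-FosDCh, 10.8, 10.9 and 7.59% in c-FosWT DMM libraries and 3.87, 15.9, 18.3 and 6.75% in contralateral libraries. Mouse antibodies are mostly kappa, and these shares stayed on that side in every library. Lambda V genes took 5.93, 17.6, 2.24 and 0% of light V counts under the c-FosDCh label, 8.62, 11.7 and 10.3% in c-FosWT DMM and 2.93, 20.2, 17.8 and 5.36% in contralateral libraries. The 0 rests on 47 light V counts, which allows a share of up to 6.38%. Iglv1, the leading lambda V gene, was at 2.48, 4.35, 0.25 and 0 CPM under the c-FosDCh label, at 3.68, 10.9 and 8.11 CPM in c-FosWT DMM and at 5.26, 8.99, 13.5 and 3.24 CPM in contralateral libraries. Iglv2 led in c-FosDCh-labelled library 2 alone, with 83 of 181 lambda V counts. Iglv3 had 0 to 26 counts in the 10 libraries other than c-FosWT DMM library 2, where it had 44.

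V genes record which B cell clones a library sampled. The 4 V genes with the largest share of a chain in c-FosWT DMM library 2 and contralateral library 1 were Ighv1-84 and Igkv4-53 in that DMM knee, and Ighv1-39 and Igkv8-30 in that contralateral knee. The last 150 bases of their V exons are shown because the call on Igkv4-53 below, and the level of the others, rest on reads being told from close relatives. They are from GENCODE M21 transcripts on GRCm38, minus strand, 5′ to 3′, at chr12:115980702-115980851 for Ighv1-84, chr6:69648824-69648973 for Igkv4-53, chr12:114914599-114914748 for Ighv1-39 and chr6:70117061-70117210 for Igkv8-30. Capitals mark bases that differ from the closest other V gene among those with a V exon of equal length, compared without gaps. That gene is Ighv1-75, Igkv4-79, Ighv1-42 and Igkv8-19 in the same order, and genes of other lengths were not compared.
Ighv1-84: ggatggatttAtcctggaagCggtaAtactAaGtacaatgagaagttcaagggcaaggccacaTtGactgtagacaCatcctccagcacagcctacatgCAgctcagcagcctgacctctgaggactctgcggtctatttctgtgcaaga
Igkv4-53: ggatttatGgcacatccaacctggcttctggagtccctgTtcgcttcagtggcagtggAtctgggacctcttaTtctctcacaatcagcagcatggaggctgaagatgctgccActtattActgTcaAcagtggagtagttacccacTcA
Ighv1-39: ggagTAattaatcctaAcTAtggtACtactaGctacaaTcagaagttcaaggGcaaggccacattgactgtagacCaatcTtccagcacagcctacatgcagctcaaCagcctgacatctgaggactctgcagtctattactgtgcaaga
Igkv8-30: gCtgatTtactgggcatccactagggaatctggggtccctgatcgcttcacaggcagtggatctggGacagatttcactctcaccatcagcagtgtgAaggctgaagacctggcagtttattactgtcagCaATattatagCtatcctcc
Over the whole V exon that equal-length gene is 96.1, 91.3, 92.8 and 92.7% identical. Among the 164 members, 103 share a 75-base window with another immunoglobulin gene and 2 share more than 50% of theirs. The median was 4.38% over all members, 4.95% over heavy V and 5.87% over kappa V genes. Ighv1-84 shares 28.2% of its windows, Igkv4-53 18.8% (with Igkv4-54 and Igkv4-60), Ighv1-39 0% and Igkv8-30 5.44% (with Igkv8-21). Of the other V genes called below, Igkv4-68 shares 27.2%, Igkv6-13 12.6%, and Igkv14-126, Igkv19-93 and Ighv1-5 0%. A larger share makes the level of a V gene less certain. Only exact matches among immunoglobulin transcripts were counted, so a share of 0% does not make a level certain.

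Ighv1-84 had 326 of its 341 counts in c-FosWT DMM library 2, with 10 in DMM library 1, 5 in contralateral library 1 and 0 in the other 8 libraries. It was 14.6% of the heavy V counts of that library (exact 95% interval 13.2 to 16.1%). In the same library Igkv4-53 had 375 of its 443 counts and 17.6% of kappa V counts (16.0 to 19.3%). The contralateral knee of the same animal held 0 counts of Ighv1-84 and 1 of Igkv4-53. Contralateral library 1 held 400 of 593 counts of Ighv1-39, 15.8% of its heavy V counts (14.4 to 17.3%), and 912 of 1253 counts of Igkv8-30, 28.4% of its kappa V counts (26.9 to 30.02%). The DMM knee of that animal held 30 and 65 counts of these genes, and c-FosDCh-labelled library 3 held 98 counts of Igkv8-30, 32.0% of its kappa V counts (26.8 to 37.6%).

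The leading V gene differed from library to library. Under the c-FosDCh label the leading heavy V genes were Ighv6-6, Ighv1-53, Ighv5-4 and Ighv1-54, with 19.0, 13.5, 37.8 and 53.8% of heavy V counts. In c-FosWT DMM libraries they were Ighv1-22, Ighv1-84 and Ighv5-17, with 7.73, 14.6 and 7.85%. In contralateral libraries they were Ighv1-39, Ighv1-81, Ighv5-6 and Ighv5-12, with 15.8, 13.0, 12.2 and 6.65%. Libraries 3 and 4 of the c-FosDCh label held 315 and 65 heavy V counts, so their exact 95% intervals were wide, 32.4 to 43.4% and 41 to 66.3%. Among kappa V genes the leading shares were 18.1, 7.66, 32.0 and 29.8% under the c-FosDCh label, 6.95, 17.6 and 7.45% in c-FosWT DMM and 28.4, 12.0, 18.2 and 6.76% in contralateral libraries.

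The effective number of heavy V genes, the inverse of the summed squared shares, was 14.7, 22.6, 4.73 and 2.89 in libraries labelled c-FosDCh, 31.4, 24.7 and 31.9 in c-FosWT DMM libraries and 19.6, 20.02, 19.7 and 33.5 in contralateral libraries. For kappa V genes it was 13.2, 29.2, 6.34 and 5.01 under the c-FosDCh label, 27.9, 19.3 and 28.3 in c-FosWT DMM and 9.51, 17.3, 15.6 and 28.3 in contralateral libraries. The 2 lowest values of each chain belong to the 2 libraries with the fewest V counts, and the number is not corrected for depth.

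Most V genes were spread over several libraries, yet 9 of the 84 V genes with at least 100 summed counts had more than 50% of them in 1 library, 5 of 42 heavy V genes and 4 of 39 kappa V genes. Ighv1-26, the heavy V gene with the most counts, was even by comparison, at 3.35, 3.95, 0 and 0.0793 CPM under the c-FosDCh label, 3.10, 7.43 and 4.33 CPM in c-FosWT DMM and 4.26, 4.71, 3.10 and 2.13 CPM in contralateral libraries. Ighv5-17 reached 9.0 CPM in c-FosWT DMM library 3 and 6.37 CPM in contralateral library 3. Ighv7-3 reached 3.94 CPM in c-FosDCh-labelled library 3, where it was 63 of 315 heavy V counts. Igkv1-117, Igkv9-120 and Igkv5-39 followed Igkv8-30 in total counts, with highest values of 13.2, 12.6 and 15.6 CPM, all in contralateral libraries.

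The share of V usage that 2 libraries have in common, the sum over genes of the smaller share, was 51.5, 53.3 and 73.0% for heavy V genes between both knees of 1 animal, in the order of the pairs. It was 48.1, 42.9 and 71.8% for kappa V genes. Between different animals the median was 41.6% for heavy V genes over 52 pairs of libraries, with a range of 11.7 to 55.8%, and 38.0% for kappa V genes, with a range of 10.2 to 58.3%. Without c-FosDCh-labelled libraries 3 and 4, whose counts are few, the medians were 46.4% and 44.6% over 33 pairs. The third pair thus lay above every pair of different animals for both chains, and the other 2 pairs lay within that range.

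**Figure D5:**
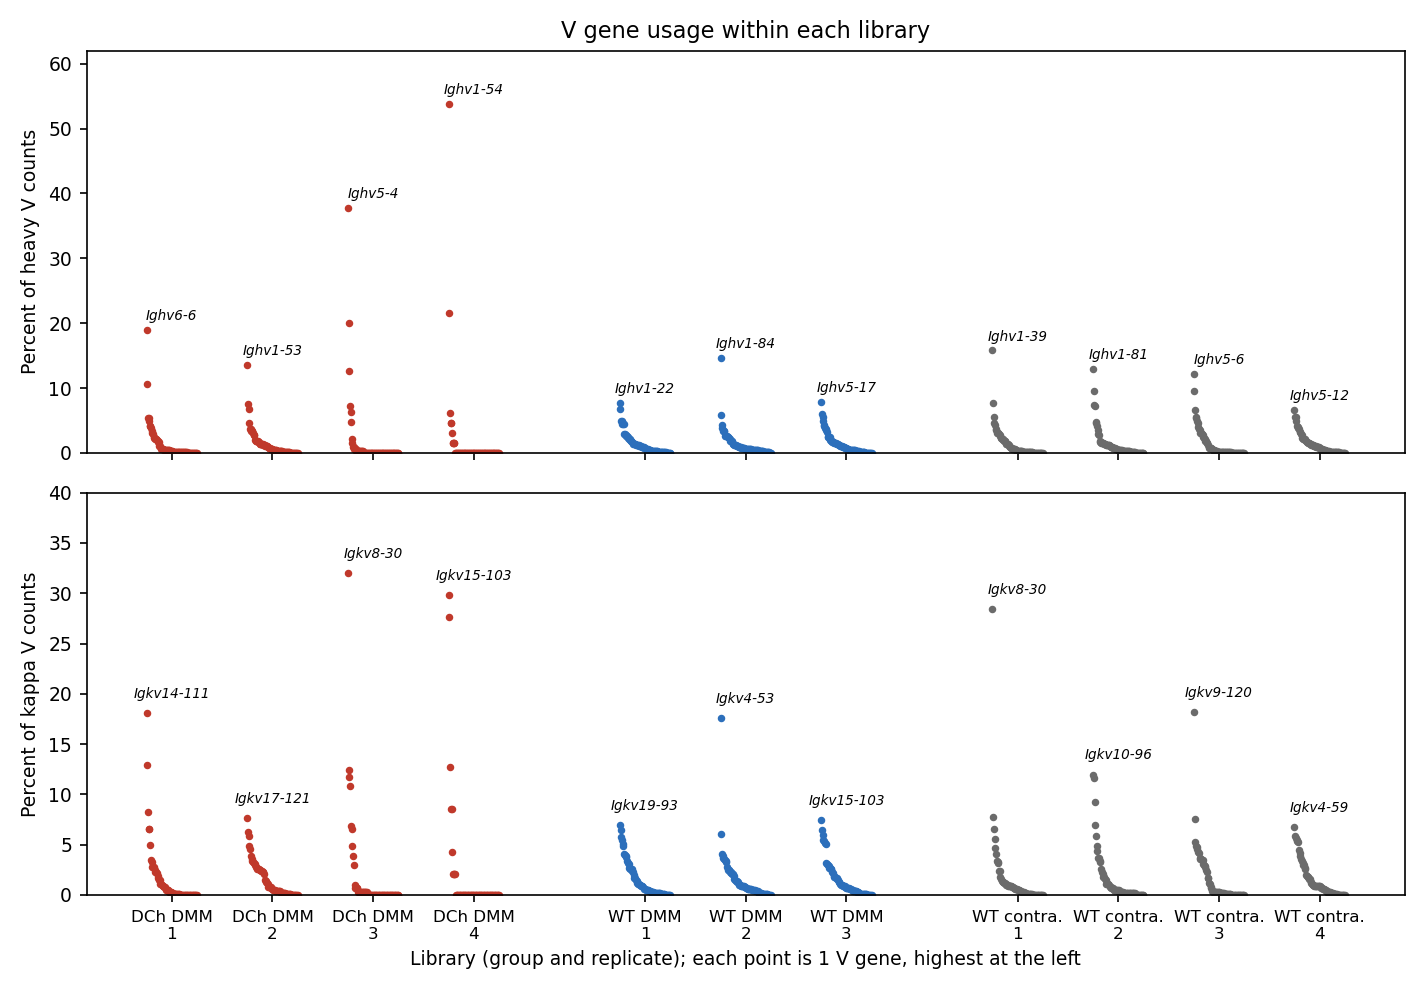
Percent of heavy V counts (top) and kappa V counts (bottom) taken by each V gene in each library, highest at the left, with the leading gene named. The c-FosDCh-labelled libraries 3 and 4 are led by genes with 37.8 and 53.8% of heavy V counts, and contralateral library 1 by Igkv8-30 with 28.4% of kappa V counts.

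Besides Iglc3, the members called lower under the c-FosDCh label than in c-FosWT DMM were 6 V genes. No c-FosDCh-labelled library held 10 counts of any of them, so they passed the filter on low counts through c-FosWT libraries alone, a choice that favours lower estimates, and the calls are given as descriptions. The rate ratios below pool the counts of a group, so their intervals cover counting error only and leave out the spread between knees. Igkv14-126 had 1, 1, 0 and 0 counts under the c-FosDCh label against 10, 29 and 106 in c-FosWT DMM. That is a rate ratio of 0.0122 with an exact 95% counting interval of 0.00146 to 0.0448 (edgeR adjusted p = 0.0348). Of its 145 c-FosWT DMM counts, 106 came from 1 library. Igkv4-68 had 0, 1, 0 and 0 counts against 26, 10 and 14, a ratio of 0.0177 (0.000438 to 0.103; edgeR adjusted p = 0.0362). Igkv6-13 had 1, 0, 0 and 0 counts against 27, 21 and 53, a ratio of 0.00874 (0.000219 to 0.0498; edgeR adjusted p = 0.0489). In these 3 genes every c-FosDCh-labelled count lay below every c-FosWT DMM count. As the genes were picked by the call, this adds no support to it.

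Igkv19-93 had 7, 4, 1 and 2 counts in libraries labelled c-FosDCh and 78, 44 and 16 counts in c-FosWT DMM libraries, a log2 fold change of -3.44 ± 0.92 (edgeR adjusted p = 0.0397). Ighv1-5 had 0, 7, 2 and 0 counts and 49, 21 and 22 counts in the same groups, a log2 fold change of -3.53 ± 0.95 (edgeR adjusted p = 0.0397). Igkv4-53 differed from the rest in that its groups overlapped: it had 2, 4, 0 and 0 counts under the c-FosDCh label and 1, 375 and 36 in c-FosWT DMM. Its log2 fold change of -6.19 ± 1.67 (edgeR adjusted p = 0.0401) became -3.32 without c-FosWT DMM library 2. The level of the same 6 genes in contralateral libraries was also uneven, with 131, 9, 40 and 52 counts for Igkv19-93 and 56, 1, 2 and 0 for Igkv6-13.

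With edgeR, B-lineage genes gave 0 calls between the DMM groups. Of the 18 tested, 10 had an unadjusted p under 0.05, where 7074 of all 18125 genes did. DESeq2 called 5 lower, where it called 13.2% of all genes lower. All 18 had lower estimates under the c-FosDCh label, with a median log2 fold change of -1.45, or -0.75 without c-FosDCh-labelled libraries 3 and 4. Cd79a, which carries the signal of the B cell receptor, was at 12.3, 15.2, 2.56 and 0.873 CPM in libraries labelled c-FosDCh, at 18.8, 41.7 and 14.8 CPM in c-FosWT DMM and at 18.0, 22.4, 14.1 and 11.9 CPM in contralateral libraries. Its log2 fold change between the DMM groups was -1.69 ± 0.74 (edgeR adjusted p = 0.121), and that of its partner Cd79b was -1.39 ± 0.77 (edgeR adjusted p = 0.195). Pou2af1, the coactivator of octamer factors at immunoglobulin promoters, had -1.68 ± 0.79 (edgeR adjusted p = 0.140). Between DMM and contralateral knees of c-FosWT mice Cd79a had 0.60 ± 0.73 (edgeR adjusted p = 0.642).

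Of 12 tested genes of the pre-B receptor and of V(D)J recombination, edgeR called 2 lower under the c-FosDCh label and 0 higher. DESeq2 called 3 lower and 1 higher. Over all 18125 genes tested, edgeR called 3.79% lower and 14.4% in either direction, and DESeq2 13.2% and 29.6%. The 2 edgeR calls were Dclre1c, the nuclease that opens coding-end hairpins, at -0.75 ± 0.19 (edgeR adjusted p = 0.0364), and Hmgb1, a DNA-bending cofactor of recombination that most cells express, at -0.64 ± 0.18 (edgeR adjusted p = 0.0414). Vpreb1, part of the surrogate light chain, had -1.20 ± 0.70 (edgeR adjusted p = 0.215). Of 10 regulators of immunoglobulin genes, edgeR called Tcf3 alone, lower at -0.72 ± 0.19 (edgeR adjusted p = 0.0392), and DESeq2 called 3 lower. Tcf3 encodes the E2A factors and is also widely expressed.

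Of 16 tested genes of the plasma cell and secretion list, edgeR called 2 higher and 1 lower under the c-FosDCh label, with a median of -0.15. DESeq2 called 2 higher and 3 lower. Over all genes tested, edgeR called 14.4% and DESeq2 29.6% in either direction. The 2 higher edgeR calls were Txndc5, a disulfide isomerase of the secretory path, at 0.71 ± 0.14 (edgeR adjusted p = 0.0332), and the proteoglycan Sdc1 at 0.50 ± 0.13 (edgeR adjusted p = 0.0378). Sec11c, a signal peptidase subunit, was called lower, at -0.64 ± 0.19 (edgeR adjusted p = 0.0475). Chondrocytes and other secretory cells use these genes too: Txndc5 was at 127 to 273 CPM over all libraries, and Sdc1 at 50.8 to 70.5 CPM under the c-FosDCh label. Levels of genes nearer to plasma cells varied. Irf4 and Prdm1, factors of plasma cells that other cells also use, reached 51.6 and 16.6 CPM. Mzb1, a chaperone of antibody assembly, ranged from 0 to 0.406 CPM under the c-FosDCh label, from 0.167 to 0.743 CPM in c-FosWT DMM and from 0.0713 to 0.876 CPM in contralateral libraries, and did not pass the filter. Tnfrsf17, the plasma cell receptor BCMA, was at 0.833 CPM or less.

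With edgeR, class switching genes gave 0 calls among 7 tested, with a median of -0.62 and 6 unadjusted p under 0.05, while DESeq2 called 1 higher and 5 lower under the c-FosDCh label. Immunoglobulin receptor and transport genes gave 0 calls among 11 with edgeR, with a median of -1.26 and 8 unadjusted p under 0.05, while DESeq2 called 1 higher and 4 lower. Over all 18125 genes, 7074 had an unadjusted p under 0.05 between the DMM groups, and DESeq2 called 2966 higher and 2392 lower. Fcgrt, the receptor that protects IgG from degradation, had 0.45 ± 0.15 between the DMM groups (edgeR adjusted p = 0.0603). In the comparison of DMM with contralateral c-FosWT knees, and in that of c-FosDCh-labelled with contralateral libraries, edgeR called 0 genes of any of these lists. DESeq2 called 1 class switching gene higher and 2 plasma cell and secretion genes lower in DMM than in contralateral c-FosWT knees. Of all 18125 genes it called 370 higher and 532 lower there. None of the calls on Dclre1c, Hmgb1, Tcf3, Txndc5, Sdc1 and Sec11c held without c-FosDCh-labelled libraries 3 and 4, where their values were -0.48, -0.46, -0.47, 0.51, 0.32 and -0.39 in that order.

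Markers of other marrow and blood cells moved beside the immunoglobulin genes. Between the DMM groups edgeR called 7 of 15 erythroid genes lower under the c-FosDCh label, with a list median of -2.13. All 15 had an unadjusted p under 0.05 with edgeR, and DESeq2 called all 15 lower. Alas2, the first enzyme of heme synthesis in red cells, was at 25.0 to 151 CPM under the c-FosDCh label. It was at 295 to 441 CPM in c-FosWT DMM and at 89.5 to 250 CPM in contralateral libraries. Of 13 T and NK cell genes edgeR called 1 lower, Gzma, a granzyme, at -1.79 ± 0.50 (edgeR adjusted p = 0.0418), with a list median of -1.46. In that list 10 genes had an unadjusted p under 0.05 with edgeR, and DESeq2 called 5 lower. The granulocyte gene S100a8 was at 39.7 to 1537 CPM under the c-FosDCh label, at 1340 to 1799 CPM in c-FosWT DMM and at 488 to 1909 CPM in contralateral libraries. With edgeR, granulocyte genes (16 tested) gave 0 calls and 0 unadjusted p under 0.05, with a median of -1.08, and DESeq2 also called 0. Macrophage genes (10 tested) gave 0 calls and 6 unadjusted p under 0.05 with edgeR, with a median of -0.99, while DESeq2 called 5 lower. Over all 18125 genes tested, 7074 had an unadjusted p under 0.05 in this comparison. Of all genes, edgeR called 1929 higher and 687 lower, and DESeq2 called 2966 higher and 2392 lower. The summed level of the erythroid list was 646 to 5031 CPM under the c-FosDCh label, 8830 to 14293 CPM in c-FosWT DMM and 2595 to 7592 CPM in contralateral libraries. The summed B-lineage list stood at 157 to 976 CPM, 1004 to 1888 CPM and 786 to 990 CPM in the same order. Muscle genes (12 tested) gave 0 calls and 1 unadjusted p under 0.05 with edgeR and 1 lower call with DESeq2, with a median of -2.78, and their summed level ranged from 44.7 to 7514 CPM over all libraries. Of 15 chondrocyte genes 4 rose under the c-FosDCh label with edgeR, Sox9, Acan, Chad and Comp, and 0 fell; 4 others, Matn3, Matn1, Col9a1 and Cnmd, had negative estimates, and DESeq2 called 6 higher and 2 lower. Sox9, the master factor of cartilage, was at 141 to 392.2 CPM under that label, at 21.6 to 76.3 CPM in c-FosWT DMM and at 120 to 171 CPM in contralateral libraries. Without c-FosDCh-labelled libraries 3 and 4, 0 genes of these lists were called, Gzma had -1.29, and the medians were -1.53 for erythroid, -0.82 for T and NK cell and 0.19 for chondrocyte genes. Between DMM and contralateral knees of c-FosWT mice, with all libraries, the medians were 1.64 for erythroid and -0.64 for chondrocyte genes. Between c-FosDCh-labelled and contralateral libraries they were -0.47 and 0.12. With edgeR 0 genes of these 2 lists were called in either comparison. The part of these cell-type differences in the immunoglobulin values was not tested, and the fit with the marrow score given above does not settle it.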

How the data were processed

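Articular cartilage was dissected from mouse knees, poly(A) RNA was made into directional libraries and single reads of 75 bases were sequenced, per the labels' protocols. Each deposited file gives the authors' unnormalised gene counts of 1 library. STAR 2.6.1a, RSEM, DESeq2 1.22.2, bcl2fastq 2.19.1.403 and the build GRCm38 are named in the submitters' processing notes; the sources used here do not give what RSEM did, the strand column or the treatment of multimapping reads. Rows that name no gene held 33.2 to 42.0% (no feature), 7.33 to 26.3% (unmapped), 6.79 to 10.2% (multimapping) and 0.625 to 0.941% (ambiguous) of reads and stayed out of all totals. Counts were given symbols from GENCODE M21.

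edgeR 4.0.16 in R 4.3.3 tested 18125 genes that passed filterByExpr, with TMM scaling and 1 robust quasi-likelihood fit of all 11 libraries by group. Calls needed a Benjamini-Hochberg adjusted p under 0.05 over all genes, two-sided. CPM used TMM-scaled totals; ± is an SD for CPM and an SE for log2 fold changes, which are the first-named group over the second. Fits with DESeq2 1.42.0, limma-voom 3.58.1, other scaling, no filter, a marrow covariate, the groups alone, libraries left out and a block by animal were alternatives. Same-animal knees have the same animal name in the titles; their deviations from group means correlated at -0.17, -0.18 and 0.25. On simulated counts the main fit was checked against known changes. The c-FosDCh-labelled libraries were numbered in accession order, since 2 carry the same number. Within groups, libraries differed by a chi-square of at least 31.0 for each degree of freedom, so each counted as 1 replicate.

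Constant genes, Jchain, the 4 V genes of each chain with the most counts and the 5 largest called changes were named, with the called gene of smallest p, up to 3, of each of 12 lists holding 163 entries, and 8 genes in all cases. Called erythroid and chondrocyte genes are given as counts, with levels of the first of each. The members and lists were chosen with earlier results of these data known.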

Additional observations from a re-analysis of the deposited data

Results flagged for a closer look

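Within the groups of 4 libraries, 112 sets of values were checked for a library whose gap to its nearest neighbour takes up most of the group's range. Of these, 17 were picked out, where chance alone picks about 1 in 20, or 5.6 of 112. No explanation was weighed.

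Contralateral library 1 stood high in Ighm at 604 CPM (the others 175 to 242 CPM), in Ighv1-39 at 25.0 CPM (0.0713 to 3.57 CPM), in Igkv8-30 at 57.1 CPM (0.214 to 1.12 CPM) and in Jchain counts per Igha count at 0.537 (0.282 to 0.325). Contralateral library 2 stood high in the Iglc3 share of lambda constant counts at 36.9% (25.4 to 25.7%). Contralateral library 3 stood high in Iglc1 at 20.1 CPM (7.01 to 9.06 CPM). Contralateral library 4 had the largest effective number of heavy V genes of its group, 33.5 (19.6 to 20.02).

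Among libraries labelled c-FosDCh, library 1 stood high in Ighg3 at 12.7 CPM (0 to 1.2 CPM) and 3.30% of heavy constant counts (0 to 0.302%), and in Jchain counts per Igha count at 0.515 (0.224 to 0.257). Library 2 stood high in Ighv5-17 at 1.80 CPM (0 to 0.0729 CPM) and Iglv2 at 4.82 CPM (0 to 0.583 CPM), and library 3 in Ighv7-3 at 3.94 CPM (0.0793 to 0.464 CPM). Library 4, with 795 member counts, stood high in the Ighd share of heavy constant counts at 7.42% (2.65 to 3.34%), in Ighd per Ighm at 0.208 (0.0543 to 0.0791), in Ighm per Igkc at 2.59 (1.216 to 1.258) and in the Iglc3 share of lambda constant counts at 40% (13.3 to 15.5%), the last on 5 counts.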

How the results depend on the processing

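Of 728 alternative values of 38 log2 fold changes, 565 kept their direction and side of the threshold, 134 lost and 9 gained a call, and 20 changed sign. With the marrow covariate the c-FosDCh-labelled over c-FosWT DMM values became 0.23 for Igha, 0.62 for Ighg1, 0.10 for Ighg2b, 0.51 for Igkc, 0.25 for Jchain and 0.37 for Vpreb1, and the c-FosWT DMM over contralateral values became -0.96 for Ighm, -1.58 for Igkc, -0.70 for Igha, -0.98 for Jchain and -0.53 for Cd79a. Leaving out each library in turn gave, for that second comparison, -0.28 to 0.78 for Ighm, -0.17 to 0.57 for Igkc, -0.36 to 0.70 for Igha and -0.15 to 0.43 for Jchain; the causes were not tested. The 7 members called between the DMM groups became 0 with the marrow covariate, 0 with the 2 groups alone, 0 to 19 with a library left out, 25 with DESeq2 (13.2% of all genes called lower), and, both chosen after seeing the data, 0 without c-FosDCh-labelled libraries 3 and 4 and 0 without the 2 libraries with the most muscle RNA. DESeq2 called 5 between c-FosDCh-labelled and contralateral libraries. Library totals alone kept 7 calls and shifted the median of all genes to -0.18. The replicate block by animal left 0 of 95 members called (lowest adjusted p 0.202) and changed no call. Summed kappa V CPM in c-FosWT DMM was 123 with totals that omit the 10 most abundant genes. Without V genes of low summed count, lambda V was 12.0% of light V counts in c-FosWT DMM, and heavy V was 10.1, 11.4 and 11.9% of heavy V and constant counts in the c-FosDCh-labelled, c-FosWT DMM and contralateral groups. The other 234 shares and 135 summed levels moved by less than the spread. Depth limits c-FosDCh-labelled library 4 most, with 65 heavy V and 47 kappa V counts.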

Other observations

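The ratios below were chosen after their values were seen and are descriptions with no test. Iglc3 counts per Iglc2 count were 0.451, 0.432, 0.333 and 1 in libraries labelled c-FosDCh, 1.11, 1.09 and 1.1 in c-FosWT DMM libraries and 1.13, 2.49, 2.06 and 1.44 in contralateral libraries. The values of c-FosDCh-labelled libraries 3 and 4 rest on 2 and 2 counts of Iglc3, while libraries 1 and 2, with 23 and 32, lay below every c-FosWT library.

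Ighm counts per Cd79a count were 16.3, 11.2, 18.9 and 17.5 under the c-FosDCh label, 14.7, 14.0 and 15.6 in c-FosWT DMM and 33.6, 10.03, 17.2 and 14.7 in contralateral libraries. In c-FosDCh-labelled libraries 3 and 4 the ratios to Cd79a rest on 41 and 11 Cd79a counts, so they are imprecise. The summed level of immunoglobulin RNA differed far more between the libraries than the Ighm ratio did, contralateral library 1 apart. Igkc counts per Cd79a count were 13.0, 9.21, 15.1 and 6.73 under the c-FosDCh label, 6.79, 6.16 and 15.0 in c-FosWT DMM and 21.2, 4.42, 10.2 and 14.3 in contralateral libraries. Heavy V genes took 14.9, 11.5, 15.1 and 10.8% of heavy V and constant counts under the c-FosDCh label, 12.8, 12.5 and 15.5% in c-FosWT DMM and 14.9, 13.1, 12.4 and 13.9% in contralateral libraries, a narrow range in which the groups overlapped.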
